A study of Mus musculus with 8 samples.

Results

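Translation termination and ribosome rescue factors were followed as 8 genes of 48709 in a count table of mouse lung tumors: *Etf1*, *Gspt1*, *Gspt2*, *N6amt1*, *Abce1*, *Pelo*, *Hbs1l* and *Upf1*. They were chosen by function around *Gspt2*, whose difference between the genotypes was already known. The genotype difference of *Gspt2* is therefore given as a description, with no test. The other 7 were listed for their roles. All 8 passed the low-count filter.

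RNA was sequenced from 8 tumors of the *K* model, 4 *K-Ctrl* and 4 *K-Setd2KO*, flash frozen and read as paired ends from strand-aware poly(A) libraries. Both groups were made on the same mixed strain background, and both received a lentiviral vector expressing Cre recombinase, Cas9 and a guide RNA in the airways. In *K-Ctrl* the guide targeted *GFP*, which is not a mouse gene, and in *K-Setd2KO* it targeted *Setd2*, the gene of the enzyme that places the last methyl group on lysine 36 of histone H3. The lung cell types that took up the vector and the extent of editing in each tumor are not given in the sources used here. The study describes the tumors as stage-matched low-grade adenomas, while the cell type label is adenocarcinoma and the extraction text speaks of cell lines. Mice of both sexes received the vector no later than week 20 of life, and the age at harvest is not given in the sources used here.

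When a ribosome reaches a stop codon, the release factor eRF1, encoded by *Etf1*, reads the codon and frees the finished protein. It arrives with eRF3, a GTPase encoded by *Gspt1* and by *Gspt2*, the latter a copy of *Gspt1* made by retrotransposition. The ATPase encoded by *Abce1* then splits the ribosome into its subunits. *Pelo* and *Hbs1l* encode relatives of eRF1 and eRF3 that free ribosomes stalled without a stop codon, and *Upf1* encodes the helicase that directs mRNAs with premature stops to decay.

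*Gspt2* was low in every control tumor and higher in every *K-Setd2KO* tumor, whereas *Gspt1*, which supplied most of the eRF3 mRNA in both groups, differed by less than its own scatter over tumors. Of the other 7 factors, 0 passed an adjusted p of 0.05 in the edgeR quasi-likelihood test, in DESeq2 or in limma voom, where 12.7% of all tested genes passed in edgeR, and 1 of the 7, *Hbs1l*, had an unadjusted edgeR p under 0.05, as did 29.9% of all tested genes. Fitted folds of *K-Setd2KO* over *K-Ctrl* were 1.33 for *N6amt1*, 1.30 for *Pelo*, 1.2 for *Hbs1l* and 1.17 for *Etf1*, against 0.925 for *Gspt1*, 0.881 for *Abce1* and 0.867 for *Upf1*.

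Because *Gspt2* is a close copy, the sequences of both genes were compared first, to show what a counting program has to tell them apart. *Gspt1* (ENSMUSG00000062203.14) lies on the minus strand of chromosome 16 from 11219292 to 11254270 on GRCm38, and its coding transcript has 15 exons. *Gspt2* (ENSMUSG00000071723.7) lies on the plus strand of chromosome X from 94636069 to 94643244, and its coding transcript is 1 exon of 2491 bases. The coding sequences, 1908 bases in *Gspt1* and 1896 in *Gspt2*, were 84.3% identical over the 1859 bases that align without gaps. A stretch of 150 coding bases where they are most alike is printed here, followed by 150 ungapped bases where they are least alike. Where stretches tied, the first in the coding sequence was taken. Both come from the reference transcripts and run 5′ to 3′ in the sense of the mRNA. Capitals mark the positions at which the genes differ. The *Gspt1* stretches are spliced, so their coordinates span an intron.
*Gspt1*, most alike, chr16:11232565-11235367, minus strand: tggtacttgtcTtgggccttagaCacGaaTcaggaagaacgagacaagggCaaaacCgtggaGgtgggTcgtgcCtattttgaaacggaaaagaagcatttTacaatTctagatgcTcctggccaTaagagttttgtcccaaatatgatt
*Gspt2*, most alike, chrX:94637016-94637165, plus strand: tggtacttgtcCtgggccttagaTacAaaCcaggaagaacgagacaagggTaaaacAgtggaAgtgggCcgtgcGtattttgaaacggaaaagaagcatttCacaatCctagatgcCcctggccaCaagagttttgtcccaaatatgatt
*Gspt1*, least alike, chr16:11237563-11239019, minus strand: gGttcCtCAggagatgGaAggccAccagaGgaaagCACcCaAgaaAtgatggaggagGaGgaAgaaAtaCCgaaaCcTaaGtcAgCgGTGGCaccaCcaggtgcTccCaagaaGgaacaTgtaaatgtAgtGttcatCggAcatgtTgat
*Gspt2*, least alike, chrX:94636758-94636907, plus strand: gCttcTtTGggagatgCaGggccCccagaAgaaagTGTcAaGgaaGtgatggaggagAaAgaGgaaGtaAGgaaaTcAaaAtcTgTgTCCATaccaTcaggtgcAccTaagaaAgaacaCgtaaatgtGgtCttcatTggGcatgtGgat

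Even in the most alike stretch, coding bases 760 to 909 of *Gspt2*, there were 13 differences in 150 bases, or 91.3% identity. In the least alike stretch, coding bases 502 to 651, there were 40 differences, or 73.3% identity. The longest run of bases shared by the transcripts of both genes was 39 bases. Of the windows of 50, 75 or 100 bases in *Gspt2* transcripts, 0 occurred in an annotated transcript of *Gspt1* or of any other gene. A read of 50 bases or longer that matches *Gspt2* without error thus has no equal match in *Gspt1*. How the counting treated reads with more than 1 best match is not given in the sources used here.

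**Figure D1:**
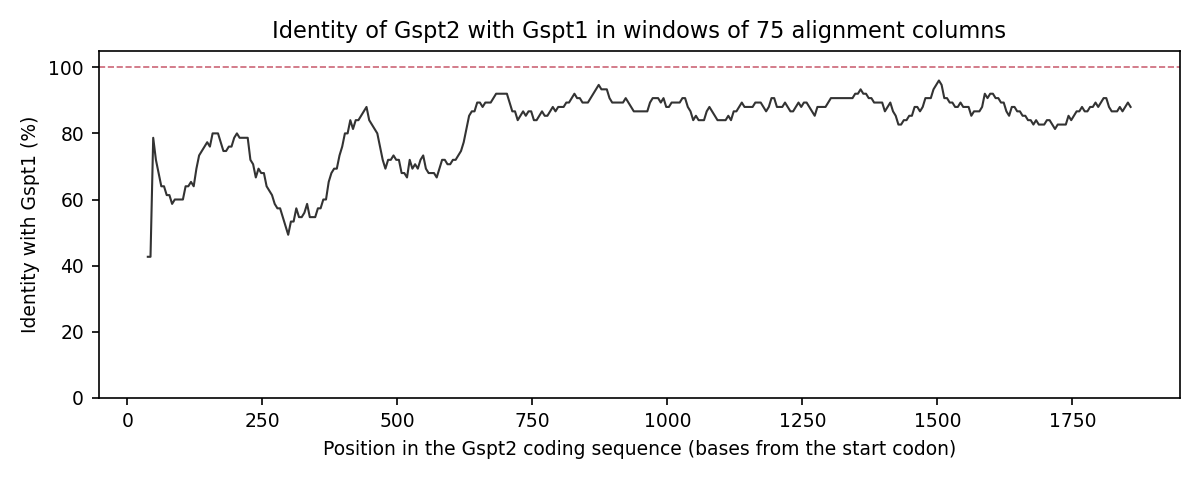
Identity of the *Gspt2* coding sequence with *Gspt1* (percent of alignment columns that hold the same base, gaps counted as different) in sliding windows of 75 columns, against the window's position in bases from the *Gspt2* start codon. The dashed line marks 100%, and the windows lay between 42.67% and 96.0%, with a median of 86.67%.

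Taken in replicate order, the *K-Ctrl* tumors held 19, 19, 41 and 11 reads of *Gspt2*, while those of *K-Setd2KO* held 270, 174, 93 and 73. In CPM, the count scaled to a common library size and composition, *Gspt2* measured 1.17, 1.60, 1.89 and 0.982 for the controls, while the *K-Setd2KO* tumors gave 13.9, 13.3, 8.58 and 12.5. The groups did not overlap, and replicate 3 was the lowest *K-Setd2KO* tumor. Mean *Gspt2* was 1.41 ± 0.412 CPM for *K-Ctrl* against 12.1 ± 2.39 CPM for *K-Setd2KO* (SD over 4 tumors each), a log2 fold change of 3.08 (SE 0.295), or 8.44-fold. The limit that 3 counts set lay between 0.138 and 0.513 CPM over the 8 libraries, and every tumor was above it, although the control values rest on 11 to 41 reads. In bulk tumors, more cells with a transcript and more transcript per cell cannot be told apart.

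Across all genes, 1897 of 14929 (12.7%) passed an edgeR quasi-likelihood adjusted p of 0.05, 742 (4.97%) higher and 1155 (7.74%) lower in *K-Setd2KO*, and the median log2 fold change was 0.03. Without *K-Ctrl* replicate 3 the counts were 224 higher and 539 lower of 14993 genes, and with the replicate number as a block 403 and 938. For 20.3% of the tested genes the CPM ranges of the groups lay apart, 9.06% with *K-Setd2KO* higher and 11.2% with it lower. Among the 8 factors this held for 2, *Gspt2* and *Hbs1l*, both higher in *K-Setd2KO*, and the median log2 fold change was 0.25. Nothing is read from the place of *Gspt2* in these counts, since this contrast chose it.

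Markers of several other cell types differed between the genotypes too. Library totals ranged from 5806599 to 21290402 counts and overlapped between the groups. Summed pan-leukocyte markers spanned 1150 to 2090 CPM in *K-Ctrl* and 640 to 814 CPM in *K-Setd2KO*, with 7 of 8 markers lower by the edgeR test, and macrophage markers spanned 494 to 1500 and 170 to 335 CPM, with 5 of 8 lower. Endothelial markers spanned 547 to 2030 and 218 to 562 CPM (2 of 8 lower), and epithelial markers 2840 to 4000 and 3650 to 4470 CPM (4 of 10 higher). Markers of 3 specialised airway and alveolar epithelial types had median log2 fold changes below 0, at −0.88 for alveolar type 1 (1 of 6 lower by edgeR), −1.23 for club (1 of 5) and −1.82 for ciliated cells (1 of 6), as had those of T cells at −1.69 (1 of 8), fibroblasts at −0.89 (2 of 8) and erythroid cells at −1.74 (0 of 5 tested). B cell and smooth muscle markers had medians of −2.0 and −0.64 and neutrophil markers one of 0.53, with 0 called in each of these lists. Markers of alveolar type 2 and lung adenocarcinoma cells, at 56700 to 92200 CPM over the 8 tumors, were abundant in every tumor, with 2 of 12 higher and 1 lower, and no marker of these lists was at 0 in all tumors. Proliferation genes spanned 428 to 463 and 173 to 335 CPM, with 4 of 15 lower by edgeR. All 15 had a negative log2 fold change, with a median of −0.86. Per 1000 CPM of the epithelial markers, *Gspt2* lay at 0.246 to 0.637 CPM in *K-Ctrl* and at 2.21 to 3.70 CPM in *K-Setd2KO*. The part of these shifts in the *Gspt2* difference was not tested. *Setd2* mRNA itself averaged 140.1 ± 8.81 CPM against 136 ± 15.5 CPM in *K-Setd2KO* (SD over 4 tumors each, edgeR adjusted p 0.824), so its level does not check the labels.

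*Gspt2* lies on chromosome X, and expression of *Xist* and of Y-linked genes placed 3 male and 1 female tumor in *K-Ctrl* and 1 male and 3 female tumors in *K-Setd2KO*. Among the male tumors, *Gspt2* averaged 1.35 CPM in *K-Ctrl* and 8.58 CPM in the 1 *K-Setd2KO* tumor, a log2 difference of 2.59. Among the female tumors it was 1.60 CPM in the 1 control and 13.2 CPM on average in *K-Setd2KO*, a log2 difference of 2.94. These values describe the tumors by sex and test nothing, since the groups do not overlap for *Gspt2*, the gene chosen by this contrast, and each split leaves 1 tumor on one side. Of the 483 tested genes on chromosome X, 76 (15.7%) were called, against 12.6% on the other chromosomes.

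The genes around *Gspt2* were examined to see whether its difference was shared along the chromosome. *Maged1*, which encodes a MAGE-family protein and lies 93.9 kb before *Gspt2*, rose from 138 ± 19.6 CPM to 274 ± 32.9 (SD over 4 tumors each), a log2 fold change of 0.99 (SE 0.144, edgeR adjusted p 0.00712), with no overlap between the groups. Of the 3 nearest tested genes on each side, the other 5 did not pass the threshold. On the side of *Maged1*, *Klhl15* and *Apoo* had log2 fold changes of 0.11 and −0.01. On the far side, *Zxdb*, 81.3 kb beyond *Gspt2*, had a log2 fold change of 0.80 (SE 0.285, edgeR adjusted p 0.0960), and *Gm39526* and *Gm26617* had 0.10 and 0.54.

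The 5 tested genes whose pattern over the 8 tumors was most like that of *Gspt2* were *Chdh*, *4732465J04Rik*, *Vsig2*, *Itga7* and *Fam83e*. Likeness was the root mean square difference of log2 CPM after centring each gene over the tumors, and it ran from 0.46 for *Chdh* to 0.51 for *Fam83e*. *Chdh*, the choline dehydrogenase of mitochondria, measured 4.02 to 8.99 CPM in *K-Ctrl* and 26.2 to 55.0 CPM in *K-Setd2KO*. *Itga7*, an integrin subunit that binds laminin, measured 14.3 to 49.8 and 114 to 225 CPM. Like *Gspt2*, all 5 were without overlap between the groups, which is what the measure selects.

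*Gspt2* was next compared with *Gspt1*, per kilobase of summed exon length so that levels of different genes can be set side by side. *Gspt1* measured 133.5, 162.5, 149.9 and 175 CPM in *K-Ctrl* and 175, 120.0, 119 and 160.4 CPM in *K-Setd2KO*. The groups overlapped, with *K-Setd2KO* replicates 2 and 3 below every control and replicate 1 level with the highest control. Mean *Gspt1* was 155 ± 17.8 and 144 ± 28.6 CPM (SD, n = 4 each), a log2 fold change of −0.11 (SE 0.160, 95% confidence interval −0.47 to 0.25, edgeR adjusted p 0.675), and the log2 difference was −0.36 among the male and −0.12 among the female tumors. An antisense gene, *2610020C07Rik*, overlaps 239 exonic bases of *Gspt1* but held 126 counts in all, against 16516 for *Gspt1*.

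Per kilobase, *Gspt1* exceeded *Gspt2* in each tumor, but by less in *K-Setd2KO*. The *Gspt1* level was 100, 89.6, 69.7 and 157 times that of *Gspt2* in the controls but only 11.1, 7.93, 12.2 and 11.3 times in *K-Setd2KO*. As a share of the summed eRF3 level, *Gspt2* made up 0.986%, 1.10%, 1.41% and 0.633% in *K-Ctrl* and 8.25%, 11.2%, 7.59% and 8.13% in *K-Setd2KO*. The highest share, in *K-Setd2KO* replicate 2, came with one of the lowest *Gspt1* levels. The summed level hardly differed in mean, at 36.5 ± 4.13 CPM per kilobase for *K-Ctrl* against 36.6 ± 7.05 for *K-Setd2KO* (SD over 4 tumors each). The mean share in *K-Setd2KO* was 8.79% ± 1.63 (SD, n = 4) with *Gspt2* scaled by 3781 exon bases, on which the folds above also rest. These bases include 1290 exon bases of a second annotated, multi-exon transcript. Scaled by the 2491 bases of the single-exon transcript, the mean share became 12.8% in *K-Setd2KO*. In *K-Ctrl* it then became 1.56%, in place of 1.03%.

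**Figure D2:**
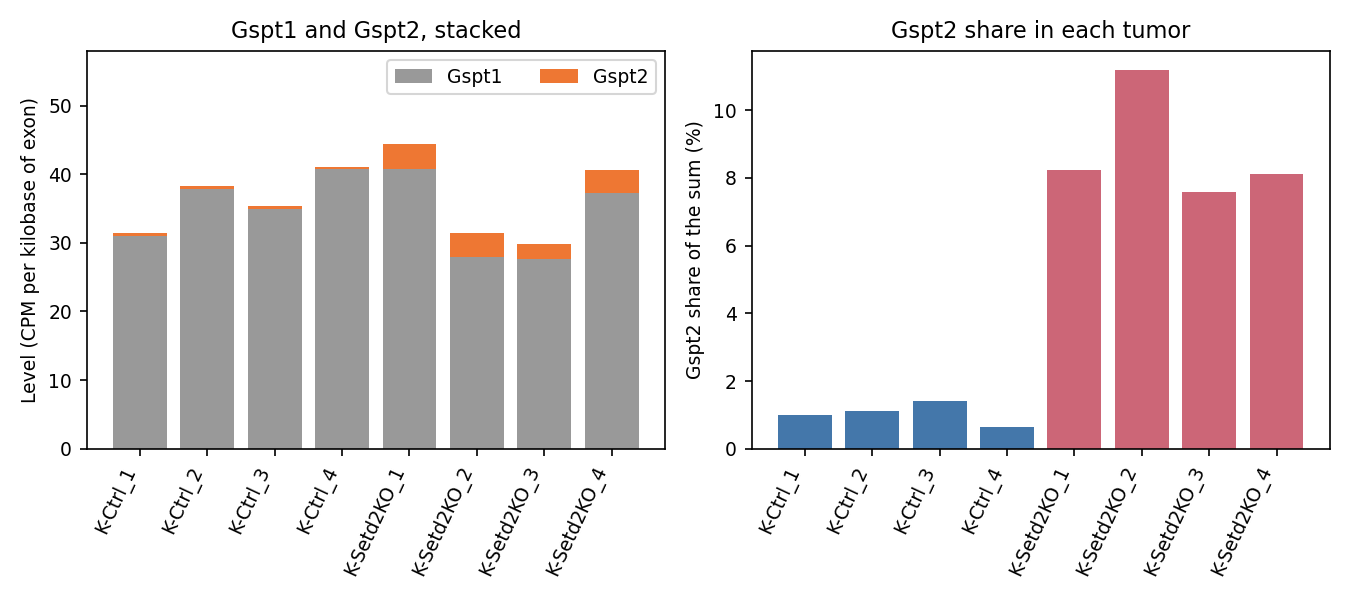
Left, length-scaled level (CPM per kilobase of exon) of *Gspt1* (gray) and *Gspt2* (orange) stacked for each of the 8 tumors. Right, the *Gspt2* share of that sum in percent, which lay at 0.633% to 1.41% in the *K-Ctrl* tumors (blue) and at 7.59% to 11.2% in the *K-Setd2KO* tumors (red).

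*Etf1* (ENSMUSG00000024360.7, chromosome 18), which encodes the partner of eRF3, was the most abundant factor. It measured 237, 267, 257 and 231 CPM in *K-Ctrl* and 297, 289, 267 and 312 CPM in *K-Setd2KO*. Of the *K-Setd2KO* tumors, 3 were above every control, and replicate 3 fell just under control replicate 2. The mean went from 248 ± 16.8 to 291 ± 18.8 CPM (SD, n = 4 each), a log2 fold change of 0.23 (SE 0.108, 95% confidence interval −0.01 to 0.47, edgeR adjusted p 0.190), which did not pass, and the log2 difference was 0.14 among the male and 0.16 among the female tumors. Per kilobase, the log2 ratio of *Gspt1* to *Etf1* averaged −0.89 ± 0.193 among the controls against −1.25 ± 0.225 among the *K-Setd2KO* tumors (SD over 4 tumors each). Its difference of −0.36 had a two-sided exact permutation p of 0.0857 over the 70 assignments of the tumors (0.171 after Benjamini-Hochberg adjustment over 2 ratios), where the smallest possible p is 0.0286. Within the male and within the female tumors the difference of this ratio was −0.50 and −0.28.

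*N6amt1* (ENSMUSG00000044442.11, chromosome 16, 87354185 to 87368742) encodes the enzyme that methylates a glutamine of eRF1 at its peptide release site, together with the small protein of *Trmt112*. *N6amt1* measured 7.14, 10.8, 7.80 and 7.14 CPM in *K-Ctrl* and 8.27, 8.41, 14.2 and 13.0 CPM in *K-Setd2KO*. *K-Setd2KO* replicates 3 and 4 were above every control and replicates 1 and 2 among the controls. The means were 8.23 ± 1.77 and 11.0 ± 3.08 CPM (SD, n = 4 each), with a log2 fold change of 0.41 (SE 0.257, 95% confidence interval −0.17 to 0.99, edgeR adjusted p 0.317). The difference was 0.94 on the log2 scale among the male tumors and −0.16 among the female ones. *Trmt112* had a log2 fold change of 0.21 (SE 0.151, edgeR adjusted p 0.376).

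*Abce1* (ENSMUSG00000058355.7, chromosome 8, 79683462 to 79711740) measured 135, 194, 145 and 162 CPM in *K-Ctrl* and 157, 109, 115 and 180.1 CPM in *K-Setd2KO*. *K-Setd2KO* replicates 2 and 3 were under every control, as they were for *Gspt1*, and the others were among the controls. Means were 159 ± 25.8 and 140.1 ± 34.3 CPM (SD, n = 4 each), with a log2 fold change of −0.18 (SE 0.191, 95% confidence interval −0.61 to 0.25, edgeR adjusted p 0.559). The log2 difference was −0.36 among the male and −0.42 among the female tumors, and the fit with a sex term gave −0.37, which was not called.

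The rescue pair was less abundant. *Hbs1l* (ENSMUSG00000019977.15, chromosome 10, 21295979 to 21368889), the GTPase of the pair, measured 48.5, 49.0, 49.4 and 53.7 CPM in *K-Ctrl* and 62.9, 59.9, 61.9 and 56.8 CPM in *K-Setd2KO*. It was the steadiest factor within groups and the only one besides *Gspt2* whose groups did not overlap, with a narrow gap between control replicate 4 and *K-Setd2KO* replicate 4. Means of 50.1 ± 2.41 and 60.4 ± 2.67 CPM (SD, n = 4 each) gave a log2 fold change of 0.27 (SE 0.0992, 95% confidence interval 0.05 to 0.49). The unadjusted edgeR p was 0.0234 and the adjusted p 0.106, so *Hbs1l* was not called, and its log2 difference was 0.29 within the male and 0.29 within the female tumors. *Gm9923*, a processed copy elsewhere on chromosome 10, shares 27.9% of the 50-base windows of *Hbs1l* transcripts and held 2 to 19 counts per tumor. If reads that match both were dropped, both rows would be lowered, and the counting of such reads is not given in the sources used here, so the level of *Hbs1l* per kilobase is uncertain.

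*Pelo* (ENSMUSG00000042275.8, chromosome 13, 115088357 to 115090188) encodes the partner of Hbs1l and lies inside *Itga1* on the same strand, with 0 exonic bases shared in the table. *Pelo* measured 9.73, 12.6, 10.2 and 6.43 CPM in *K-Ctrl* and 13.7, 9.94, 12.3 and 14.9 CPM in *K-Setd2KO*. *K-Setd2KO* replicates 1 and 4 were above every control, and replicates 2 and 3 lay in the control range. Means of 9.75 ± 2.55 and 12.7 ± 2.12 CPM (SD, n = 4 each) gave a log2 fold change of 0.38 (SE 0.237, 95% confidence interval −0.16 to 0.91, edgeR adjusted p 0.321), and the log2 difference was 0.50 among the male and 0.005 among the female tumors. The host gene *Itga1* had a log2 fold change of −0.47 (edgeR adjusted p 0.463). A pair of models of GENCODE mouse release M21 at this locus, *Gm49395* and *Gm10734*, share 60.0% of the 50-base windows of *Pelo* and are not rows of the table. The log2 ratio of *Pelo* to *Hbs1l* per kilobase averaged −0.77 ± 0.462 among the controls against −0.64 ± 0.271 among the *K-Setd2KO* tumors (SD over 4 tumors each), a difference of 0.13 with a two-sided exact permutation p of 0.629. That sign turned without *K-Ctrl* replicate 4, to −0.09, and within the female tumors, to −0.28.

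*Upf1* (ENSMUSG00000058301.7, chromosome 8, 70331525 to 70353278) measured 68.4, 69.9, 75.8 and 75.5 CPM in *K-Ctrl* and 69.6, 65.3, 48.0 and 68.1 CPM in *K-Setd2KO*. *K-Setd2KO* replicate 3 stood well under the rest, replicates 2 and 4 were just under the lowest control, and replicate 1 lay among the controls. Per kilobase the means were 15.7 ± 0.827 and 13.6 ± 2.17 CPM (SD, n = 4 each), with a log2 fold change of −0.21 (SE 0.136, 95% confidence interval −0.51 to 0.10, edgeR adjusted p 0.343). The difference was −0.61 among the male tumors, which include replicate 3, and −0.05 among the female ones.

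**Figure D3:**
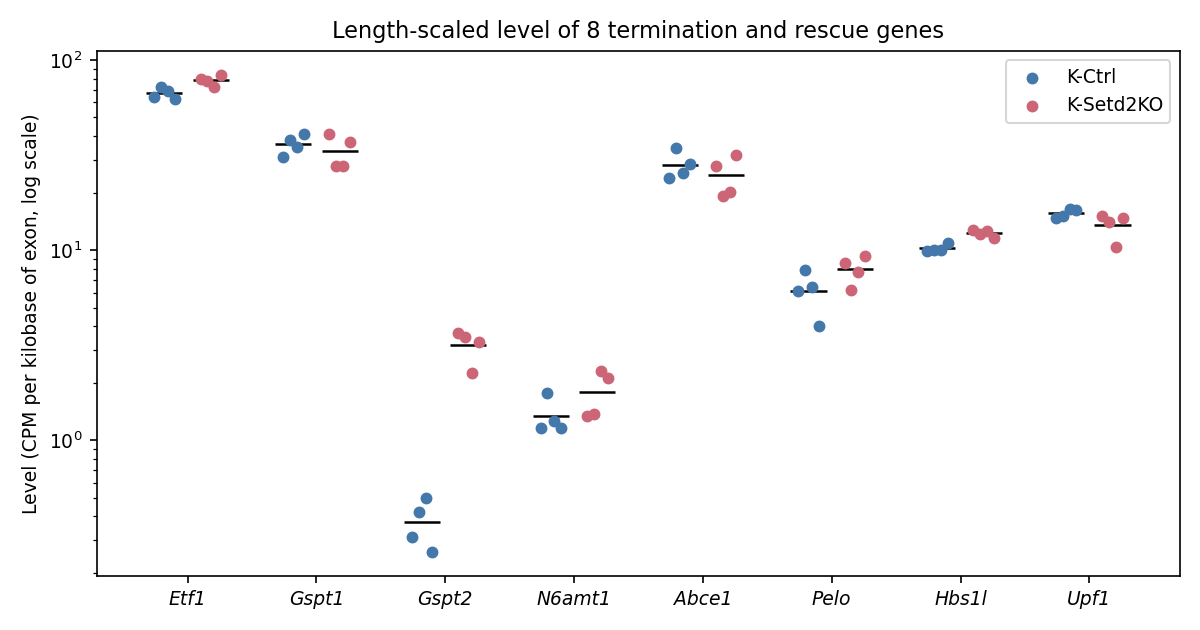
Level of each factor in CPM per kilobase of exon, on a log scale, with 1 point per tumor (*K-Ctrl* blue, *K-Setd2KO* red, 4 each) and a bar at each group mean. *Gspt2* moves from 0.373 to 3.19 in mean, from below *N6amt1* to above it, while the points of the other 7 genes overlap or, for *Hbs1l*, lie close together.

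Ordered by mean level per kilobase, the factors stood in *K-Ctrl* as *Etf1* at 66.9, *Gspt1* at 36.1, *Abce1* at 28.1, *Upf1* at 15.7, *Hbs1l* at 10.2, *Pelo* at 6.10, *N6amt1* at 1.34 and *Gspt2* at 0.373 CPM per kilobase. Only the ranges of the neighbours *Gspt1* and *Abce1* overlapped, and *Gspt1* was the higher of them within 4 of 4 tumors. In *K-Setd2KO* the order was the same except that *Gspt2*, at 3.19, stood above *N6amt1*, at 1.79 CPM per kilobase. There the ranges overlapped for *Gspt1* and *Abce1*, for *Upf1* and *Hbs1l*, and for *Gspt2* and *N6amt1*, and the gene named first was the higher in 4, 3 and 3 of the 4 tumors. With the 2491-base length, *Gspt2* in *K-Setd2KO* lay at 3.45 to 5.57 CPM per kilobase, above *N6amt1* in 4 of 4 tumors and without overlap, and in *K-Ctrl* it stayed below *N6amt1*. The place of *Hbs1l* under *Upf1* rests on reads that match *Gm9923* having been counted, which is not known.

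Genes that work beside these factors were counted in 7 lists written from general knowledge, of which 82 of 83 genes were tested. By the edgeR test 3 of these rose and 0 fell (3.66% called, beside 12.7% of all tested genes). Limma voom called 4, beside 1738 of 14929, and DESeq2 called 6, beside 3211 genes in all. The DESeq2 fit took all rows and gave an unadjusted p to 28245 genes, so its share of calls is not comparable with the others. Of the 82, 54 had a positive and 28 a negative log2 fold change, where 52.7% of all tested genes were positive, and the median was 0.11, beside 0.03 over all genes. *Paip1*, whose product binds the poly(A)-binding protein, rose from 125 ± 9.48 CPM to 191 ± 13.5 (SD over 4 tumors each), a log2 fold change of 0.61 (SE 0.107, edgeR adjusted p 0.0112). *Rnps1*, a protein bound to exon junctions, rose from 16.2 ± 1.59 CPM to 29.8 ± 2.59, a log2 fold change of 0.88 (SE 0.137, edgeR adjusted p 0.00826). *Upf3b*, which links exon junctions to Upf1 and lies on chromosome X, rose from 73.4 ± 4.75 CPM to 108 ± 17.1, a log2 fold change of 0.56 (SE 0.130, edgeR adjusted p 0.0264). The values of all 3 genes, picked by their edgeR p, were without overlap between the groups. This held for 11 of the 82 list genes, beside 20.3% of all tested genes. The *Upf3b* call was lost with the replicate number as a block (edgeR adjusted p 0.0741) and without *K-Ctrl* replicate 1, 2 or 3 (edgeR adjusted p 0.0696, 0.0660 and 0.0854), while its log2 fold change in these 4 fits was 0.52 to 0.55.

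Read by role and by the edgeR test, the list of partners and modifiers of termination had 1 of 12 genes called (*Paip1*) and a median log2 fold change of 0.16, and the list of nonsense-mediated decay and exon junction genes had 2 of 18 (*Rnps1* and *Upf3b*) and a median of 0.20. None of the 6 recycling genes was called. The smallest p there belonged to *Eif3j2*, a single-exon copy of an initiation factor subunit gene, with a log2 fold change of 0.57 (edgeR adjusted p 0.0833). Among 13 sensors of stalled and collided ribosomes, 0 were called by edgeR. The stress kinase gene *Map3k20* came nearest, with a log2 fold change of −0.53 (SE 0.164, edgeR adjusted p 0.0630), and it was called lower by DESeq2 (adjusted p 0.0346) and by limma voom (adjusted p 0.0485). In quality control of stalled chains 0 of 11 were called by edgeR and 2, *Nemf* (adjusted p 0.0292) and *Klhdc10*, by DESeq2, with *Nemf*, which marks the stalled large subunit, at 165 ± 19.8 CPM against 219 ± 15.5 in *K-Setd2KO* (SD over 4 tumors each), a log2 fold change of 0.41 (SE 0.120, edgeR adjusted p 0.0545). The SKI complex and exosome list (0 of 14) and the mitochondrial termination list (0 of 8) had their smallest p at *Skiv2l*, with a log2 fold change of 0.28, and *Mtrf1l*, with 0.47 (edgeR adjusted p 0.127 for each). Over the 7 lists 18 genes had an unadjusted p under 0.05, and 4464 of the 14929 tested genes did.

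**Figure D4:**
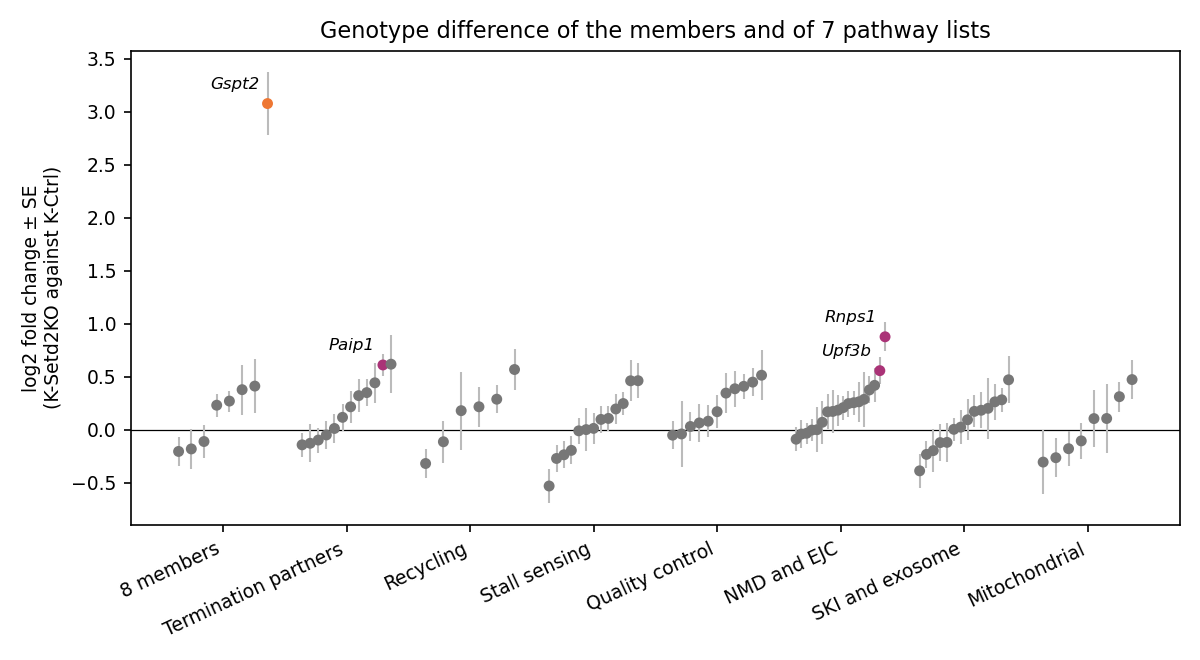
Log2 fold change of *K-Setd2KO* against *K-Ctrl*, with its SE as a line, for the 8 factors and the tested genes of 7 pathway lists, ordered within each list. *Gspt2* (orange) stands at 3.08, the 3 list genes past an edgeR adjusted p of 0.05 (purple, *Paip1*, *Rnps1* and *Upf3b*) lie between 0.56 and 0.88, and the remaining genes (gray) lie between −0.53 and 0.62.

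A RefSeq promoter window on GRCm38, mostly upstream of the gene start, was matched for 6 of the 8 genes. *Gspt2* and *Etf1* had no entry. Short motifs were searched on both strands. GGGCGG occurred in 4 of the 6 (*Gspt1*, *N6amt1*, *Hbs1l* and *Upf1*) and in 35.7% of 32851 promoters. TGACG occurred in 5 of the 6 (all but *Upf1*) and in 20.8% of promoters. CCAAT was present in *Abce1* alone (37.4% of promoters), CCGGAAG in *Gspt1* alone (8.86%) and ACGTG in *Pelo* and *Hbs1l* (19.6%), while TATAAA (13.6%) and CACGTG (7.15%), which contains ACGTG, were found in 0 of the 6.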

How the data were processed

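The authors deposited 1 table of raw read counts, with no normalization, for 48709 versioned Ensembl genes in 8 tumors. The submitters' processing notes name STAR 2.5.2b, featureCounts 1.5.0-p1 and GRCm38.p4. The annotation release, strand setting and treatment of multi-mapped reads are not given in the sources used here. GENCODE mouse release M21 gave symbols for 48349 identifiers. Genes were tested in R 4.3.3 with edgeR 4.0.16 (filterByExpr, TMM factors, robust quasi-likelihood fit on genotype alone) over 14929 genes with Benjamini-Hochberg adjustment, on code tested on simulated counts. SE is the absolute log2 fold change over the square root of F, and the 95% interval uses the t quantile. Alternatives were DESeq2 1.42.0, limma 3.58.1 voom, other factors and filters, a sex term, a replicate block and each tumor left out.

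The members, lists and tests were chosen with earlier results of these data known. Genes named are the 8 factors, *Setd2*, the called genes and smallest p of each list, overlapping genes and copies, 3 neighbours on each side of *Gspt2* and the 5 genes most like it. *Trmt112*, *Klhdc10*, *Paip2b* and *Ascc1*, outside that rule, were added after their values were seen. The labels do not say that the tumors come from separate animals, so p-values measure the spread between these tumors. No pair in a group was alike within sampling noise (lowest chi-square per degree of freedom 30.5). The 3-count limit covers counting error only. Protein sequences were not used here. One item of the mouse model is not reported here.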

Additional observations from a re-analysis of the deposited data

Results flagged for a closer look

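*Hbs1l* in *K-Ctrl* replicate 4, at 53.7 CPM, stood apart from the other 3 control tumors (48.5 to 49.4 CPM): its gap to the nearest of them took more of the group's range than Dixon's 95% limit for 4 samples allows. It lay on the side of the *K-Setd2KO* tumors and below all of them. For the 8 factors in both genotypes 16 groups of 4 values were examined, of which 1 held such a tumor, where chance gives 0.8. Without this tumor the log2 fold change of *Hbs1l* was 0.30 (edgeR adjusted p 0.107).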

How the results depend on the processing

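None of the 7 factors other than *Gspt2* was called under any of 16 alternatives, and each of the 7 kept its direction. Sizes moved more: the log2 fold change of *Gspt1* lay between −0.23 (sex term) and −0.03 (without *K-Setd2KO* replicate 3), of *Abce1* between −0.37 (sex term) and −0.07 (without *K-Ctrl* replicate 2), of *Upf1* between −0.33 (sex term) and −0.09 (without *K-Setd2KO* replicate 3), of *Pelo* between 0.22 (without *K-Ctrl* replicate 4) and 0.52, of *N6amt1* between 0.26 (without *K-Setd2KO* replicate 3) and 0.57, of *Etf1* between 0.15 (sex term) and 0.27 and of *Hbs1l* between 0.24 and 0.30. That of *Gspt2*, which this contrast chose, lay between 2.83 and 3.26. The adjusted p of *Hbs1l* lay between 0.101 (limma voom) and 0.297 (no filter on low counts).

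The count of all genes past the threshold moved from 1897 to 1237 with a sex term and to 3211 with the DESeq2 Wald test, which also used its own filter and gave a p to 28245 genes, and lay between 763 and 2058 when each tumor was left out, with the lowest value without *K-Ctrl* replicate 3 (224 higher, 539 lower). The count over the 7 lists, 3 genes, was 6 with DESeq2 and 2 to 6 with each tumor left out (6 without *K-Ctrl* replicate 4, 5 without *K-Setd2KO* replicate 2). *Nemf* was called by DESeq2 (adjusted p 0.0292) and without *K-Ctrl* replicate 4 (edgeR adjusted p 0.0297), *Map3k20* under 5 alternatives (adjusted p down to 0.0288) and *Eif3j2* under 1 (0.0271). *Klhdc10* was called by DESeq2 and without *K-Setd2KO* replicate 2, *Paip2b* without *K-Setd2KO* replicate 2 and *Ascc1* with the sex term. The *Pelo* to *Hbs1l* log2 ratio difference of 0.13 became −0.28 within the female tumors and lay between −0.085 (without *K-Ctrl* replicate 4) and 0.28 with each tumor left out. For *Gspt1* to *Etf1* it lay between −0.45 and −0.26. With the single-exon length, an alternative chosen after seeing the data, the mean *Gspt2* share was 12.8% in *K-Setd2KO* and 1.56% in *K-Ctrl*. The cause of these changes was not tested. The fits that leave 1 tumor out also hold fewer tumors.

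The labels do not link same-numbered tumors. By expression, replicate 2 was female and replicate 3 male in both groups. The correlations of their deviations from the group means were −0.07, −0.03, 0.19 and −0.02, and only replicate 3 correlated best with its own number in both groups. With the replicate number as a block 1341 genes were called (403 higher, 938 lower), 1176 of them among the 1897, and 0 of the 7 factors.

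Depth limits *Gspt2* most, with 11 to 41 counts in the control tumors.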
